A study of Arabidopsis thaliana with 6 samples.

Results

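The 10 genes described here encode enzymes of the main route of auxin synthesis in Arabidopsis thaliana: the flavin monooxygenase genes YUC1, YUC2, YUC3, YUC4, YUC5, YUC6, YUC8 and YUC9, and the tryptophan aminotransferase genes TAA1 and TAR2. They were chosen by gene identifier, from 27444 nuclear protein-coding genes in RefSeq. Of the 10, 6 are in the authors' deposited table of genes with RGA-GFP peaks, against 46.1% of all protein-coding genes. The data are chromatin immunoprecipitation and sequencing (ChIP-seq) of inflorescence apices of the Landsberg erecta accession. One group of plants expressed RGAp:GFP-rga-delta17, a fusion of green fluorescent protein (GFP) to a form of the DELLA protein RGA that gibberellin does not remove, under the RGA promoter. The reference was wild type Landsberg erecta without GFP, pulled down with the same anti-GFP beads, and each group had 3 biological replicates. Tissue came from plants with open flowers, and each replicate was made from a batch of apices, so cell types within the apex were not separated. Peak lists hold no expression, so the tissue was not checked against marker genes.

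Auxin is made from tryptophan. The TAA1 family converts tryptophan to indole-3-pyruvate, and the YUC enzymes then turn indole-3-pyruvate into indole-3-acetic acid, a step regarded as limiting. Members of the YUC family are used in different organs: YUC1 and YUC4 act in young floral organs and meristems, YUC2 and YUC6 also act in flowers, and YUC5, YUC8 and YUC9 are best known from seedlings and roots. DELLA proteins do not bind DNA themselves and reach chromatin through transcription factors, so a peak marks chromatin that was pulled down with RGA-GFP.

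RGA-GFP peaks lay at YUC3, YUC4, YUC6 and TAR2 in all 3 RGA-GFP libraries and in no wild type library. Within the gene windows defined by the authors, YUC4 carried the strongest site and was the only one of these genes with a pooled peak on both sides of its coding sequence. YUC1 is listed as a target in the authors' deposited table, but its pooled peak reached the window of the gene by 18 bp only. TAA1 had a weaker peak in 2 RGA-GFP libraries, and no window is listed for YUC2, YUC5, YUC8 or YUC9.

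The peak lists come from the authors, and so do the fold, summit pileup and q value of each peak. A pooled peak is one that the authors called after merging the 3 RGA-GFP libraries, with the 3 wild type libraries merged as control. A peak was counted for a gene where it shared at least 50 bp with the gene's window in the authors' deposited table, which adds at most 3000 bp before the coding sequence and 1500 bp after it. Of the 13426 windows, 7529 (56.1%) are shorter than the 4500 bp of both flanks, so many flanks were cut short. Distances to the coding sequence below assume a full flank and are given for flanks that no other gene overlaps, or as limits. By this rule 4 of the 10 members had a pooled peak, against 29.4% of all protein-coding genes. A peak of all 3 RGA-GFP lists lay in the windows of the same 4 of 10, against 30.9% of all protein-coding genes. With the added condition of no wild type peak in the window the count was again 4 of 10, against 27.3% of all protein-coding genes and 59.3% of the 13426 windows in the table. Shares of this size are near those of the genome, and with 10 genes they do not set the family apart. The 4 members had a median pooled fold of 2.12 at their strongest peak, beside 1.74 over the 8063 protein-coding genes with a pooled peak. Pooled folds of 2 or more were found at 2 of 10 members, YUC4 and YUC3, against 5.17% of all protein-coding genes.

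Sequencing depth differed between the groups. RGA-GFP libraries 1, 2 and 3 kept 14644122, 15704296 and 16745139 tags after duplicates were removed, and wild type libraries 1, 2 and 3 kept 10014730, 8808462 and 3999159 tags. A wild type peak lay in 0 of the 6 listed windows, against 8.13% of the protein-coding genes in the authors' deposited table. Among the 4 members with a pooled peak it lay in 0, against 9.88% of all protein-coding genes with a pooled peak. At sites where the local background equals the genome average, the lowest fold called as a peak was 1.75, 1.90 and 2.30 in wild type libraries 1, 2 and 3, against 1.49, 1.44 and 1.46 in RGA-GFP libraries 1, 2 and 3. A site as weak as that of TAA1, with folds of 1.79 and 1.78, was thus not detectable in wild type libraries 2 and 3. For each of YUC3, YUC4, YUC6 and TAR2, peaks in 3 of 3 RGA-GFP lists against 0 of 3 wild type lists gave p = 0.1 (exact permutation test, two-sided), which is the smallest p that 3 against 3 allows. After Benjamini-Hochberg adjustment over the 13426 windows of the table this exact permutation p was 0.169, so no member could pass. Windows enter the table only through RGA-GFP peaks, so the direction was fixed in advance for this test and its variants below. These p-values are therefore no separate evidence of binding.

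**Figure D1:**
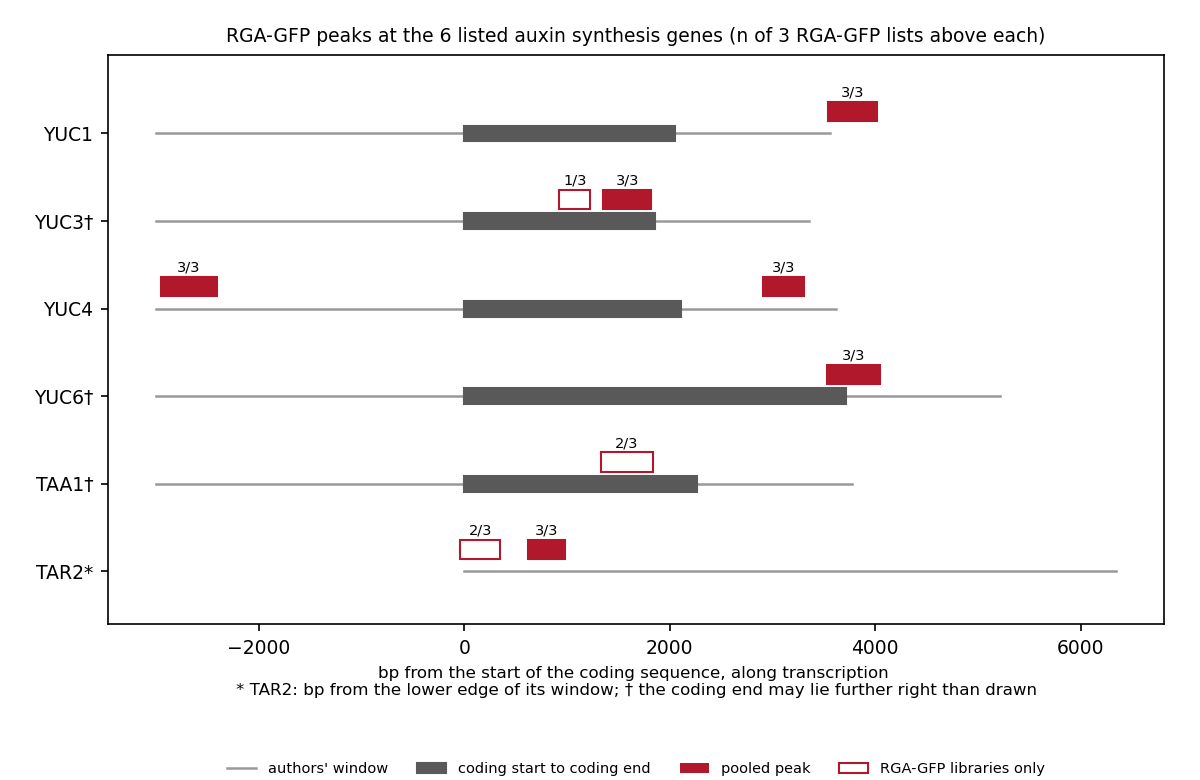
Position of the peaks at the 6 listed genes. The x axis is the distance in bp from the start of the coding sequence in the direction of transcription, except for TAR2, whose direction was not read and whose distance runs from the lower edge of its window; red boxes are pooled peaks, open boxes are peaks of single RGA-GFP libraries without a pooled peak, and the numbers give how many of the 3 RGA-GFP lists hold the site. At YUC3, YUC6 and TAA1, marked with a dagger, the coding end may lie further right than drawn. YUC4 has a pooled peak on each side of its coding sequence, and the YUC1 peak lies almost wholly outside its window.

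YUC4 (AT5G11320), one of the YUC genes active in floral meristems, had its strongest site upstream. The pooled peak covered chr5:3615770-3616310 on the TAIR10 build, with its summit 2653 bp upstream of the coding sequence and near the outer edge of the window. The fold was 4.38, 3.81 and 3.13 in RGA-GFP libraries 1, 2 and 3, a mean of 3.77 ± 0.62 (SD, n = 3), and no wild type list had a peak there. The summits of the 3 RGA-GFP libraries fell within 39 bp of each other. The pooled fold over the combined wild type was 2.60, with a −log10 q of 25.7. Of all 8112 pooled peaks, 99.2% had a lower pooled fold, and among the 6281 pooled peaks that each RGA-GFP library also had, 95.9% had a lower mean replicate fold. The site also lies in the window of AT5G11325, a neighbouring tRNA gene.

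A second YUC4 site lay on the other side of the gene, at chr5:3610050-3610456, with its summit 994 bp downstream of the coding sequence. Its fold was 3.01, 2.85 and 2.25 in RGA-GFP libraries 1, 2 and 3 (2.70 ± 0.40, SD, n = 3), and 0 of 3 wild type lists had a peak. The pooled fold was 1.98, above that of 84.2% of pooled peaks. The upstream site was the higher of the pair in 3 of 3 RGA-GFP libraries, by 1.39 times in the mean. The downstream site also lies in the window of the next gene, AT5G11310, so the peaks alone do not say which gene it serves. Among protein-coding genes with a pooled peak, 28.5% have 2 or more, so a pair of sites is not rare.

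YUC3 (AT1G04610) had its site inside the gene rather than before it. The pooled peak covered chr1:1280741-1281207, between the start and the end of the coding sequence, with its summit at least 272 bp before that end. The fold was 3.03, 2.98 and 2.45 in RGA-GFP libraries 1, 2 and 3 (2.82 ± 0.32, SD, n = 3), and 0 of 3 wild type lists had a peak. The pooled fold was 2.32, above that of 96.5% of pooled peaks. No other listed window shares the site, so of the member sites with a pooled peak those of YUC3 and YUC6 are tied to 1 listed gene only. RGA-GFP library 1 alone had a further, weak peak inside YUC3, with a fold of 1.61.

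YUC6 (AT5G25620), which acts in flowers and leaves, had its site at the far end of the gene. The pooled peak covered chr5:8934708-8935225, with its summit at most 99 bp past the end of the coding sequence. The fold was 3.21, 3.28 and 2.85 in RGA-GFP libraries 1, 2 and 3 (3.11 ± 0.23, SD, n = 3), the narrowest spread of the 6 in-window sites with a pooled peak, and 0 of 3 wild type lists had a peak. The pooled fold was 1.92. By mean replicate fold the site stood above 86.9% of the 6281 peaks, and by pooled fold above 79.3% of all pooled peaks.

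YUC1 (AT4G32540), the partner of YUC4 in flower development, had a peak at the edge of its window. The authors' deposited table lists it with peaks in 3 RGA-GFP lists and a pooled fold of 1.96. The pooled peak, chr4:15704443-15704918, shared 18 bp with the YUC1 window, and the peaks of RGA-GFP libraries 1, 2 and 3 shared 45, 48 and 45 bp. Each is under the 50 bp that the table states as its minimum, and how that minimum was applied is not given in the sources used here. The pooled summit lay 1706 bp downstream of the coding sequence. Most of the peak lies in the window of the neighbouring gene LUG (AT4G32551), which encodes a transcriptional corepressor of floral genes. Its fold was 2.37, 2.72 and 1.99 in RGA-GFP libraries 1, 2 and 3 (2.36 ± 0.36, SD, n = 3), and 0 of 3 wild type lists had a peak. Counting as the table does, 5 of 10 members had a pooled peak, against 29.7% of all protein-coding genes. Of the 8156 protein-coding genes with a pooled fold in the table, 119 (1.46%) had no pooled peak that shared 50 bp with the window, and YUC1 was one of them.

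TAR2 (AT4G24670) and TAA1 (AT1G70560), the aminotransferases of the first step, had a lower pooled fold than the YUC genes with a pooled peak, or no pooled peak. At TAR2 the pooled peak covered chr4:12726952-12727311, with a pooled fold of 1.71, close to the median of 1.70 over all pooled peaks. The fold was 2.87, 3.11 and 2.06 in RGA-GFP libraries 1, 2 and 3 (2.68 ± 0.55, SD, n = 3), and 0 of 3 wild type lists had a peak. A second stretch nearer the window's edge had separate peaks in RGA-GFP libraries 1 and 3, with folds of 1.53 and 1.62, and RGA-GFP library 2 covered both stretches with a single peak. Both stretches also lie in the window of HB22, a zinc finger homeodomain gene. The direction of TAR2 could not be read from its window, so the site is not placed upstream or downstream.

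TAA1 had a peak inside the gene, at chr1:26606186-26606693, in RGA-GFP libraries 1 and 2 only. The folds were 1.79 and 1.78, RGA-GFP library 3 had no peak there, and 0 of 3 wild type lists had one. There was no pooled peak, and the authors' deposited table gives TAA1 in 2 replicate lists with a pooled fold of 0. Peaks in 2 of 3 RGA-GFP lists against 0 of 3 wild type lists gave p = 0.4 (exact permutation test, two-sided), and 0.495 after adjustment over all windows.

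For the 4 members without a listed window, YUC2, YUC5, YUC8 and YUC9, the space up to the neighbouring protein-coding genes was searched. A site with a peak in at least 2 RGA-GFP libraries, and without one in any wild type library, lay there for 3 of the 4, against 12.4% of the protein-coding genes that are not in the authors' deposited table. The same search outside the windows found such sites for 5 of all 10 members, against 14.2% of protein-coding genes. The space searched differs in length between genes and was not matched, and no test was made of either count.

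**Figure D2:**
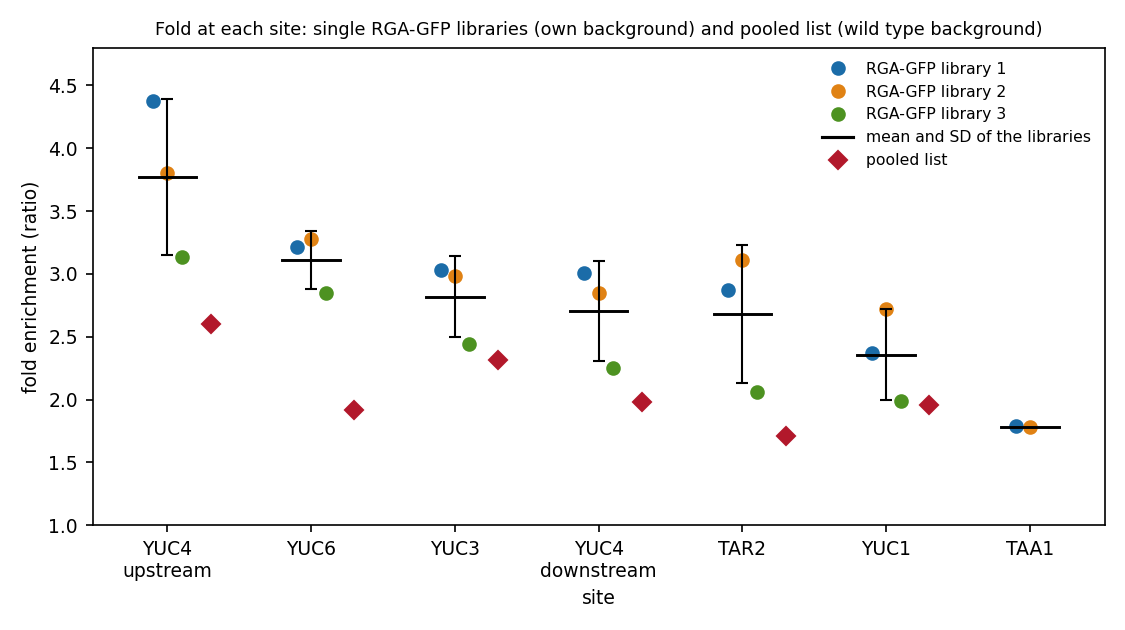
Fold enrichment, a ratio, at 7 sites of the 6 listed genes. Circles are single RGA-GFP libraries over their own background, black bars the mean of the libraries that have the site (with its SD where all 3 do), and diamonds the pooled fold over the combined wild type. RGA-GFP library 3 has the lowest circle at each of the 6 sites found in all 3 libraries, and TAA1 has circles for 2 libraries only.

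Ordered by mean replicate fold, the sites ran YUC4 upstream (3.77), YUC6 (3.11), YUC3 (2.82), YUC4 downstream (2.70), TAR2 (2.68) and YUC1 (2.36). Only the first gap, 0.66 between YUC4 upstream and YUC6, was larger than the larger SD of the neighbouring pair. All other neighbours in the order, from YUC6 down to YUC1, differed by less than that SD, which includes differences between libraries that the sites share. Within libraries, YUC4 upstream was the highest site in each of the 3 RGA-GFP libraries. YUC6 was above YUC3, YUC3 above YUC4 downstream, and TAR2 above YUC1, also in 3 of 3. YUC4 downstream was above TAR2 in 2 of 3. The order was not tested. RGA-GFP library 3 gave the lowest fold at all 6 sites, as it did at 76.3% of those 6281 pooled peaks.

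The order by pooled fold was different: YUC4 upstream, YUC3, YUC4 downstream, YUC1, YUC6 and TAR2. The pooled fold divides by the local background of the combined wild type, which can be recovered from each peak's pileup and fold. At YUC4 upstream, YUC3 and YUC1 that background was 71.1 tags, the genome average. It was 81.0 tags at YUC4 downstream, 86.0 tags at YUC6 and 98.0 tags at TAR2, or 1.14, 1.21 and 1.38 times the genome average. The median over all pooled peaks was 1.10 times the average, and the lowest was 1.00 times. The average thus acts as a floor, and the wild type signal at YUC4 upstream, YUC3 and YUC1 may lie below it.

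The summit pileups of the combined RGA-GFP, scaled to the depth of the combined wild type, were closer together than the folds. They were 187 tags at YUC4 upstream, 166 tags at YUC3 and also at YUC6, 162 tags at YUC4 downstream, 168 tags at TAR2 and 140 tags at YUC1. Set against the genome average alone, the folds at TAR2, YUC6 and YUC3 would be 2.35, 2.32 and 2.32. YUC6 and TAR2 thus had lower pooled folds than YUC3 at about the same pileup, over a higher wild type background, and neither had a wild type peak.

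**Figure D3:**
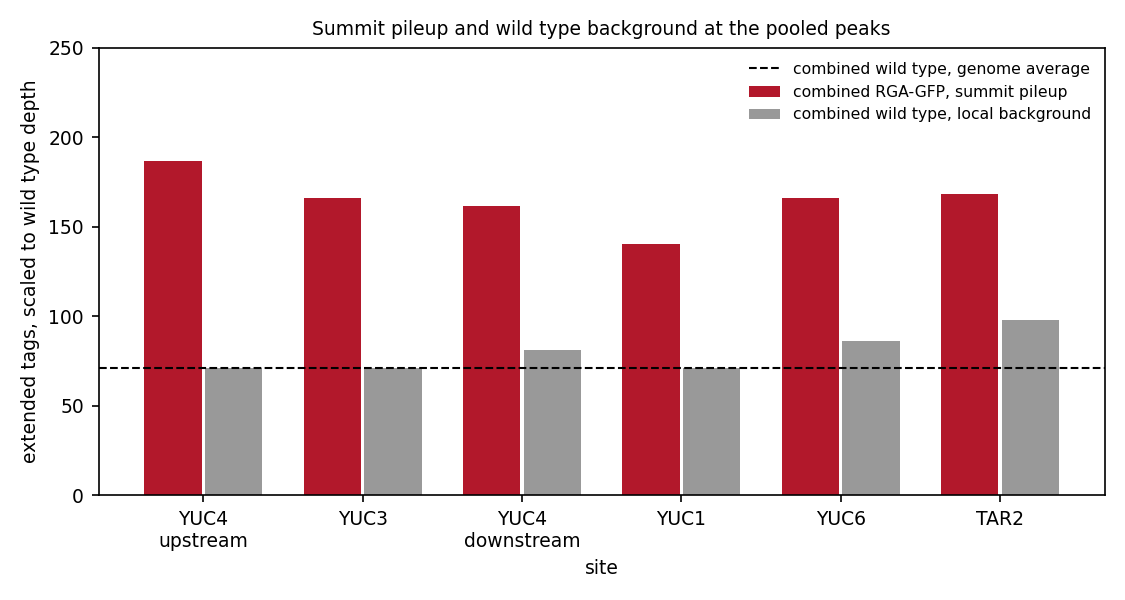
Summit pileup of the combined RGA-GFP, left bar, and local background of the combined wild type, right bar, at the 6 pooled peaks, in extended tags scaled to the wild type depth. The dashed line is the wild type genome average of 71.1 tags, which acts as a floor for the right bars. Those of YUC4 downstream, YUC6 and TAR2 stand above it.

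In every list 1 tag was kept per position. The combined RGA-GFP kept 83.2% of the tags that its 3 libraries kept when called singly. At the YUC4 upstream summit the 3 libraries had 603 tags in sum, and the combined call, before scaling, had 343, or 56.9%. The same share was 61.7% at YUC6, 60.8% at TAR2 and 68.4% at YUC3, against a median of 67.6% over the 6281 peaks. The strongest member site thus had the smallest such share of the 4 sites named here, and the part of duplicate removal in its pooled fold was not tested.

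**Figure D4:**
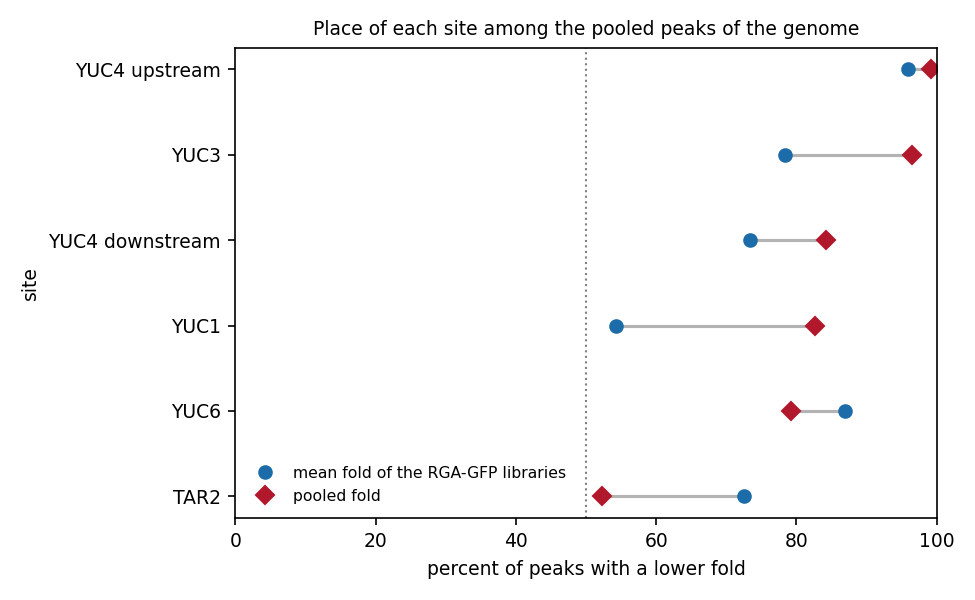
Place of the 6 member sites among the pooled peaks of the genome, as the percent of peaks with a lower fold, by the mean of the RGA-GFP libraries (circles, of 6281 peaks) and by the pooled list (diamonds, of 8112 peaks). YUC4 upstream stands above 95.9% and 99.2% of peaks, and TAR2 above 72.6% and 52.2%.

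Among 4850 genes with 1 pooled peak, found in all 3 RGA-GFP lists and in no wild type list, those most like YUC4 upstream in their 3 replicate folds and pooled fold were UMAMIT25 and AT1G09390, which share a peak, and AT5G03880. Likeness was the Euclidean distance of the log2 folds, over 3 libraries and the pooled list. The distance was 0.082 for the peak of UMAMIT25 and AT1G09390 (folds of 4.14, 3.81 and 3.09 in RGA-GFP libraries 1, 2 and 3, pooled fold 2.61), and 0.12 for that of AT5G03880 (4.28, 3.79 and 3.31, pooled fold 2.45). AT5G03890 shares the peak of AT5G03880 and has the same distance.

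The rest of the pathway was followed in lists of other auxin genes, 46 in all, of which 19 had a pooled peak (41.3%). The share of all protein-coding genes, 29.4%, is the reference for this count and for that of each list below. Of the YUC and TAR genes outside the members, 2 of 6 had one, YUC11 and TAR1, and YUC7, YUC10, TAR3 and TAR4 had none. TAR1 had a pooled fold of 1.71, with 2.03 ± 0.11 in the RGA-GFP libraries (SD, n = 3), at a site shared with its neighbour GGT1. The strongest pooled peak of YUC11, with a fold of 1.66, overlapped no peak of a single RGA-GFP library and also lies in the window of AT1G21420. The YUC11 window holds peaks of all 3 RGA-GFP libraries and 2 pooled peaks.

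Genes that supply tryptophan had a pooled peak in 3 of 7 cases, ASB1, PAT1 and TSB2. TSB2, a tryptophan synthase gene, had the highest pooled fold, 1.82, and its mean in the RGA-GFP libraries was 1.64 ± 0.03 (SD, n = 3). By that mean it was the lowest of the 3 genes. ASB1, an anthranilate synthase gene, had a mean of 2.71 ± 0.29 (SD, n = 3). PAT1 had folds of 4.52, 1.85 and 1.88 in RGA-GFP libraries 1, 2 and 3, so its mean of 2.75 rests on the first. The sites of ASB1 and PAT1 also lie in the windows of AT1G25230 and AT5G17980. On the indole-3-acetaldoxime route, which branches toward indole glucosinolates, 1 of 8 had a pooled peak, CYP83B1 (pooled fold 1.39). The CYP83B1 site also lies in the window of AT4G31510. NIT1 and NIT2, nitrilase genes of this list, had peaks in 3 RGA-GFP lists and 1 wild type list, and no pooled peak.

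Genes that inactivate auxin or divert its precursor had a pooled peak in 8 of 13 cases, against 29.4% of all protein-coding genes. They were GH3.2, GH3.3, GH3.4, GH3.5, GH3.6, GH3.9, IAMT1 and VAS1. IAMT1, which methylates indole-3-acetic acid, had its peak 159 bp upstream of the coding sequence. Its pooled fold was 2.80, and its fold was 6.34, 5.72 and 4.77 in RGA-GFP libraries 1, 2 and 3 (5.61 ± 0.79, SD, n = 3), higher than YUC4 upstream in each library. GH3.3, whose product conjugates auxin to amino acids, had a pooled fold of 2.78, with 5.22, 4.44 and 3.92 in RGA-GFP libraries 1, 2 and 3 (4.53 ± 0.65, SD, n = 3). The GH3.3 site also lies in the window of AT2G23171. No wild type peak lay in the windows of IAMT1 or GH3.3, while those of GH3.5 and GH3.6 each held a peak of 1 wild type list. None of the 3 genes that release auxin from conjugates had a pooled peak.

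Of the genes known as regulators of YUC expression, 5 of 9 had a pooled peak: SHI, NGA1, NGA2, NGA3 and SPL. SPL, the SPOROCYTELESS gene of anther and ovule development, had the highest pooled fold of the list, 2.14, and folds of 5.25, 4.44 and 3.94 in RGA-GFP libraries 1, 2 and 3 (4.54 ± 0.66, SD, n = 3), at a site that also lies in the window of AT4G27340. NGA2, one of the NGATHA genes of style development, came next with 1.74 in the pooled list, and averaged 2.17 ± 0.15 in the RGA-GFP libraries (SD, n = 3). The NGA2 site also lies in the window of AT3G61962. STY1, STY2, NGA4 and LEC2 had none. No difference between these lists was tested.

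**Figure D5:**
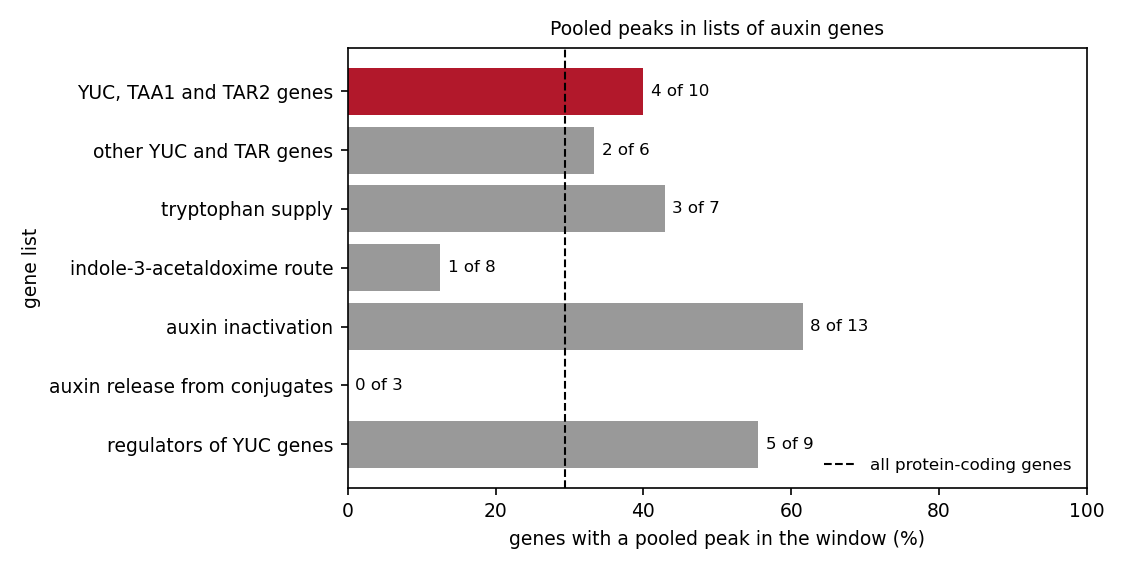
Share of genes with a pooled peak in the window, in percent, for the 10 members (red) and 6 lists of other auxin genes (grey), with the count beside each bar. The dashed line is the share of all protein-coding genes, 29.4%; auxin inactivation stands at 61.5% and the members at 40.0%.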

How the data were processed

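Samples were grouped by their titles. Per the labels' protocols, apices were crosslinked with formaldehyde plus Di(N-succinimidyl) glutarate, and single-end reads were sequenced. Per the submitters' processing notes, Bowtie2, SAMtools and MACS2 2.0.10 were used, on the TAIR10 build. Per the file headers, MACS 2.0.10.20130915 called each library without a control and the combined RGA-GFP against the combined wild type, keeping 1 tag per position, extending it by 300 bp and using 90 Mb as genome size and 0.05 as q cutoff. The deposited values are the summit pileup (signal, in tags), the fold (a ratio of pileup to local background) and the −log10 q value. In single lists the background is the library's own, so their folds are not ratios to wild type. The authors' deposited table gives windows and the number of RGA-GFP lists with a peak. That number rests on a −log10 q cutoff of 3 for replicate peaks, while the lists were used here at their q cutoff of 0.05. The counts can thus differ: AMI1 has 2 RGA-GFP lists in the authors' deposited table and 3 as counted here.

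Windows and peaks were intersected with Python 3.11.15 and pandas 2.3.3. The background was recovered as (pileup + 1) / fold − 1. Coding edges and direction were read from the windows, assuming full flanks, where only 1 flank beyond the RefSeq gene (TAIR10.1) passed 1500 bp. For the 5 members with a direction both edges fell inside the RefSeq gene, as for 79.3% of 5062 such genes. RefSeq coordinates are not printed. A fold cannot be given for a library without a peak, so groups were compared by presence. Intersection and exact test were tested on simulated data. By rule the text names the members, the other auxin genes with a pooled peak (values for the 1 or 2 highest per list), and the 3 genes nearest to YUC4. Genes sharing a site, list members without a pooled peak, and the values of ASB1 and PAT1 were added after values were seen. Members and lists were chosen with earlier results of these data known. Sequences were not used here.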

Additional observations from a re-analysis of the deposited data

Results flagged for a closer look

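Sites beside the members, but outside their windows, entered the comparisons above only as counts of members with such a site. In the space between a member and the neighbouring protein-coding genes, 9 such sites had a peak in at least 2 RGA-GFP lists and in no wild type list. They flank 5 members (against 14.2% of protein-coding genes, spaces of any length), 5 of the sites were in all 3 RGA-GFP lists and 4 had a pooled peak. A further pooled peak outside a window lay beside TAR2, at chr4:12725747-12726080 (pooled fold 1.54), in the window of HB22. Of the single RGA-GFP libraries only library 1 had a peak there, so it is not among the 9.

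YUC4 had a further site on each side of the sites in its window. The one beyond the downstream site, at chr5:3608753-3609287, had folds of 3.15, 2.74 and 2.45 in RGA-GFP libraries 1, 2 and 3 (mean 2.78), and lies in the window of AT5G11310. The one beyond the upstream site, at chr5:3616877-3617363, had 1.96, 1.86 and 2.16 (mean 2.00) and lies in the window of the tRNA gene AT5G11325. YUC4 is thus flanked by 4 RGA-GFP sites, each seen in all 3 RGA-GFP lists.

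The space around YUC6 held 4 of the 9 sites. The strongest, at chr5:8920639-8921135, had folds of 3.69, 3.67 and 3.06 in RGA-GFP libraries 1, 2 and 3 (mean 3.48) and a pooled fold of 2.63, above YUC4 upstream (2.60), and lies in no window of the authors' deposited table. The window of YUC6 begins only at chr5:8933540, so position alone does not tie this strongest site to YUC6. The other 3 had mean folds of 1.70, 1.81 and 2.46, and the last of these was in all 3 RGA-GFP lists. The site of 1.70 lies in the window of RD22, that of 2.46 in the window of AT5G25625, and that of 1.81 in no window. At the site of 2.46, the peak of RGA-GFP library 2 and the pooled peak (pooled fold 1.49) also reach the window of AT5G25630.

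For 3 of the 4 members without a listed window, a site lay between the gene and a neighbour whose window holds it. The share of all protein-coding genes with such a site is given above. Beside YUC5 it had folds of 2.25, 1.87 and 1.83 in RGA-GFP libraries 1, 2 and 3 (mean 1.98) and lies in the window of MYA2, a myosin gene. Beside YUC8 it had 2.17 and 2.36 in RGA-GFP libraries 1 and 2 (mean 2.26) and lies in the window of GrxC5, a glutaredoxin gene. Beside YUC2 it had 1.73 and 1.62 in RGA-GFP libraries 1 and 3 (mean 1.67). None of these 3 had a pooled peak, and YUC9 had no peak of any list on either side.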

How the results depend on the processing

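Of 66 alternative values, 58 stayed within the spread between replicates or within 1.5 times the count. Some of these could only stay: leaving out 1 of 3 libraries cannot move a mean fold by more than its SD. Choosing each member's site by mean replicate fold returned the same site and value. With a pooled fold of at least 2, the members with a pooled peak were 2 rather than 4. With a −log10 q of at least 10 they were 3, without TAR2. With an overlap of 1 bp, or with the authors' table, they were 5, through YUC1. Leaving out a replicate gave 4 to 5 members with a peak in all remaining RGA-GFP lists, the fifth being TAA1 without replicate 3. The pooled list was not called again, so its count of 4 then asks only for a peak in the remaining lists, and a wild type count of 0 cannot change. Among 5 members ranked by mean replicate fold, pileup scaled to tags kept moved TAR2 to 2, YUC6 to 3 and YUC3 to 4. Ranked by pooled fold, an order chosen after seeing the data, YUC3 stood at 2, YUC1 at 3, YUC6 at 4 and TAR2 at 5; YUC4 stayed at 1 in each. With the replicate block, peaks in 3 of 3 RGA-GFP lists against 0 of 3 wild type lists at 4 members gave p = 0.25 (exact sign-flip permutation test), the smallest that 3 pairs allow. Over 13426 windows, same-numbered libraries correlated at −0.002, 0.047 and −0.010 in their deviations, and unlike-numbered ones between −0.045 and 0.041. The wild type lists held only 972, 285 and 527 peaks, so presence in windows cannot show whether the numbers pair the libraries. Without a replicate, 2 against 2 cannot go below p = 0.333 (exact permutation test). Depth limits the wild type side, where library 3 kept 3999159 tags. Peaks are compared by presence, and p-values cover the spread between these libraries only.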
